A study of Homo sapiens with 20 samples.

Results

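The 30 genes described here carry out or control the synthesis of cholesterol and fatty acids. They were taken by gene symbol through the Ensembl identifiers of the files, and all 30 were found among 60624 identifiers in the organoid files and 60623 in the progenitor files. By role they comprised 7 genes of the mevalonate and isoprenoid pathway, 11 genes that turn its product into squalene and then cholesterol, 5 genes of regulation and sterol transport, and 7 genes of fatty acid synthesis. The genes were not chosen by any measured value, but the set was proposed with earlier results of these data known.

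RNA-seq had been done on the human embryonic stem cell line MEL1, in cells with intact ALKBH5 (WT) and in cells with a knockout of ALKBH5 (A5-KO). The study's methods give the line as MEL1 INSGFP/W, a reporter in which the insulin promoter drives green fluorescent protein, and both genotypes derive from it. ALKBH5 is a demethylase that removes N6-methyladenosine (m6A) from RNA. Both genotypes were taken at 2 stages of directed differentiation. At the later stage, human islet-like organoids (hILOs), there were 2 libraries for each genotype, 4 in all, given as TPM (transcripts of each gene relative to the library total, corrected for length). At the earlier stage, pancreatic progenitors (PPs), the cells had been treated with actinomycin D (Act D, 1 μg per ml), which stops transcription, and sampled at 4 times (0 h, 1 h, 2 h and 3 h), 16 libraries in all with 2 in every group, given as CPM (reads of each gene relative to the library total, not corrected for length). The knockout had been made with Cpf1 guides and picked colonies, and the labels name 1 A5-KO line without its clone, so a difference between genotypes is a difference between these lines. The labels do not say whether the 2 libraries of a group came from separate cultures, and the p-values measure the spread between these libraries only.

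Cells make cholesterol from acetyl-CoA through mevalonate, isoprenoid diphosphates, squalene and lanosterol. When sterols in the endoplasmic reticulum run low, SCAP escorts the membrane-bound factors SREBP1 and SREBP2 (genes SREBF1 and SREBF2) to the Golgi, where they are cut and released to switch on most of the genes described here, while INSIG1 holds SCAP back when sterols are plentiful. SREBP1 acts more on the fatty acid genes and SREBP2 more on the sterol genes, and INSIG1 is itself a target, so its mRNA is a widely used sign of pathway activity.

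ALKBH5 itself checked the genotype labels. In hILOs it was at 78.8 and 81.9 TPM in WT against 4.16 and 3.42 TPM in A5-KO, and in PPs at 0 h at 149 and 172 CPM in WT against 19.1 and 18.8 CPM in A5-KO. The fitted difference was -4.09 on the log2(TPM + 1) scale in hILOs (limma adjusted p = 0.00213) and -3.01 on the log2(CPM + 1) scale in PPs (limma adjusted p = 1.46e-06). During Act D the WT level fell to 48.3 and 33.7 CPM at 3 h. The PP libraries held 30516384 to 35206513 reads, recovered from the CPM values, and the depth of the hILO libraries is unknown. Endocrine markers summed to 29154 to 38407 TPM over the hILO libraries, and no marker of that list was under 0.1 TPM in both libraries of a genotype. The PPs expressed 8 progenitor markers at a sum of 841 to 1154 CPM over the 4 libraries at 0 h, PTF1A being under 0.1 CPM in both WT libraries, and endocrine markers at 7.61 to 8.52 CPM.

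Promoter sequence was looked up for the genes on which the results below turn. RefSeq windows (build GRCh38.p14) of 300 bases, from 250 before to 50 after an annotated start, were at hand for 26 of the 30 genes. Windows for ACAT2, FASN, FDFT1 and SQLE were not used here. INSIG1 had the largest fall in Act D, HMGCS1 was a mevalonate enzyme that fell within 1 h in both genotypes, SREBF2 codes for the sterol-regulated factor itself, and SCD was the most abundant member per length at both stages and was not called lower in Act D. Each is printed 5′ to 3′ in the direction of its gene, with capitals for 4 motifs on either strand that were chosen after the data had been seen: TCACNCCAC (a sterol regulatory element core), CCAAT (the NF-Y box), GGGCGG (the Sp1 box) and CACGTG (the E-box), so that capitals can also show the reverse complement of a motif. HMGCS1 has 2 windows, of which the first is shown.
INSIG1 (chr7:155297628-155297927, plus strand): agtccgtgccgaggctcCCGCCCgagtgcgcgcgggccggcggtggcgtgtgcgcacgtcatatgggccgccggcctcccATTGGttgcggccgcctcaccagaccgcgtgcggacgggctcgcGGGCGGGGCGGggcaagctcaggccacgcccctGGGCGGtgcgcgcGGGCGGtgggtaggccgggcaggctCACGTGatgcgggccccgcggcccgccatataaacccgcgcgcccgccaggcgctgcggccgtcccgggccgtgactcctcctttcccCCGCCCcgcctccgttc
HMGCS1 (chr5:43313363-43313662, minus strand): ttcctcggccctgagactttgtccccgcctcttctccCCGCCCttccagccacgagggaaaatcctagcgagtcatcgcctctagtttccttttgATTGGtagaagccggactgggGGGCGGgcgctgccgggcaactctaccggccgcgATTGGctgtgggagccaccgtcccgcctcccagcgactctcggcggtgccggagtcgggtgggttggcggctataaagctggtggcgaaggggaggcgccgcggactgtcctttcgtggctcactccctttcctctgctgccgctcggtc
SREBF2 (chr22:41832855-41833154, plus strand): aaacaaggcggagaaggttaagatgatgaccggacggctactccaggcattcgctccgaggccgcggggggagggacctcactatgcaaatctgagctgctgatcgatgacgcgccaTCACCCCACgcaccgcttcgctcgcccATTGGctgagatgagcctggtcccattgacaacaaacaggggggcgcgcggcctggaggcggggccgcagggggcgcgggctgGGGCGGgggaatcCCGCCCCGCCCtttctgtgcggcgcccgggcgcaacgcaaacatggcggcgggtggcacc
SCD (chr10:100346983-100347282, plus strand): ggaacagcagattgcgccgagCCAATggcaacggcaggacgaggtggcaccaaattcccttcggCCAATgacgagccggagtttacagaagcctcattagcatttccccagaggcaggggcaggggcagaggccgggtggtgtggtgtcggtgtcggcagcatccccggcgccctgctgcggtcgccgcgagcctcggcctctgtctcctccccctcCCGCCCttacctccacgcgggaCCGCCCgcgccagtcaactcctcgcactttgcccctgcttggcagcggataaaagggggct

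CCAAT was present in a window of 20 of the 26 genes (76.9%), against 39.7% of the 27305 genes with a window. GGGCGG was present for 25 of 26 (96.2%), against 48.3% of all genes, and CACGTG for 4 of 26 (15.4%), namely LSS, SC5D, INSIG1 and SCAP, against 8.77%. TCACNCCAC was found for SREBF2 alone, at 3.85% of the members and 1.39% of all genes. None of the 4 motifs contains another. The GC content of the printed windows was 78.3% for INSIG1, 65.7% for HMGCS1, 68% for SREBF2 and 66.3% for SCD, and the part of base composition in these shares was not tested. These are matches of letters in a short window, and a missing match says only that the letters are not there.

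The first comparison was of genotypes in hILOs. Here 1 member, IDI1, was higher in A5-KO and none was lower, at a limma adjusted p under 0.05 and a change over 1.5-fold. Among all 17300 genes tested (mean of at least 1 TPM), 2.7% were called higher and 4.09% lower, so the counts of called members were near or under the background. At an unadjusted p under 0.05, 12 members were higher and 2 lower. The direction was more uneven than the calls: 23 of 30 differences were above 0, with a median of 0.16 on the log2(TPM + 1) scale against -0.06 for all genes. Both A5-KO libraries lay above both WT libraries for 19 members (63.3%), against 24.3% of all genes, and below both for 5 (16.7%), against 37.1%. The median was 0.19 for the mevalonate genes, 0.21 for the squalene to cholesterol genes, 0.33 for the regulation genes and 0.00 for the fatty acid genes.

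Of the mevalonate genes, IDI1, the isomerase of isopentenyl diphosphate (minus strand of chromosome 10, 1039152 to 1049119 in GRCh38), was at 75.95 and 92.86 TPM in WT against 127.4 and 130.2 TPM in A5-KO. The A5-KO libraries were both higher, and the difference was 0.61 ± 0.11 (SE) on the log2(TPM + 1) scale, or 1.53-fold (adjusted p = 0.0378). Without WT replicate 1 the difference was 0.47 and was no longer called, and it also lost its call, at differences of 0.626 and 0.595, without A5-KO replicate 1 or 2 (highest adjusted p over all alternatives 0.143). MVK, mevalonate kinase (plus strand of chromosome 12, 109573255 to 109598125), had 26.6 and 25.17 TPM in WT against 35.49 and 31.96 TPM in A5-KO, a difference of 0.37 that missed the threshold (adjusted p = 0.0645). HMGCS1 (HMG-CoA synthase) overlapped between genotypes at 107.6 and 111.2 TPM in WT against 117.7 and 103.7 TPM in A5-KO, and PMVK, the next kinase, overlapped too. ACAT2 (acetoacetyl-CoA thiolase, the first step) and MVD (the decarboxylase) were higher in both A5-KO libraries with differences of 0.14 and 0.19 and adjusted p-values of 0.312 and 0.233. FDPS, farnesyl diphosphate synthase, spread from 125 to 207 TPM within WT. Annotated pseudogenes number 8 for FDPS, 3 for IDI1, 3 for CYP51A1 and 2 for HSD17B7, and reads may have been split among them.

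INSIG1, the protein that retains SCAP (plus strand of chromosome 7, 155297776 to 155310235), gave the smallest p-value of the 30 genes in hILOs. It stood at 48.32 and 49.79 TPM in WT against 73.49 and 71.48 TPM in A5-KO, with no overlap. The difference was 0.55 ± 0.05 on the log2(TPM + 1) scale (1.47-fold, adjusted p = 0.0109), just under the 1.5-fold limit, and passed it at 0.62 when the libraries were rescaled by the median of ratios. SREBF1 had the largest difference, 1.102, but its WT libraries disagreed at 66.5 and 29.76 TPM against 98.34 and 95.3 TPM in A5-KO (adjusted p = 0.151). Without WT replicate 1 the SREBF1 difference was 1.67 and was called. SREBF2 was at 80.83 and 82.34 TPM in WT against 88.08 and 87.09 TPM in A5-KO (0.10, adjusted p = 0.212). SCAP went the other way, with 39.21 and 34.61 TPM in WT against 31.69 and 25.43 TPM in A5-KO (-0.36, adjusted p = 0.162). STARD4, which carries sterol between membranes, had 27.1 and 27.8 TPM in WT against 37.48 and 32.41 TPM in A5-KO (0.33, adjusted p = 0.0953).

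The late enzymes of the cholesterol branch held most of the small, tightly replicated differences. EBP, the sterol isomerase, had 83.3 and 82.3 TPM in WT against 113.1 and 106 TPM in A5-KO (0.40, adjusted p = 0.0215). SC5D, the desaturase of the sterol ring, had 51.81 and 51.69 TPM in WT against 67.97 and 66.27 TPM in A5-KO (0.37, adjusted p = 0.0226). MSMO1, which removes methyl groups from the ring, had 105.9 and 110.4 TPM in WT against 139.2 and 134.4 TPM in A5-KO (0.34, adjusted p = 0.0242). In these 3 genes the genotypes did not overlap, and the change was under 1.5-fold. EBP shares 36.4% of its exon bases with a readthrough gene on the same strand, so its reads may have been counted in part elsewhere. LSS, the cyclase that makes lanosterol, was at 55.48 and 53.08 TPM in WT against 72.33 and 65.23 TPM in A5-KO (adjusted p = 0.0583). TM7SF2, a sterol reductase, was lower in A5-KO at 59.09 and 58.47 TPM against 73.3 and 70.73 TPM in WT (-0.29, adjusted p = 0.0368), again under 1.5-fold. DHCR7, which catalyses the last reduction to cholesterol, was lower in both A5-KO libraries by 0.13 on the log2(TPM + 1) scale (adjusted p = 0.197). FDFT1 (squalene synthase) and SQLE (squalene epoxidase) differed by 0.08 and 0.04, with adjusted p-values of 0.528 and 0.64. CYP51A1, NSDHL and HSD17B7, which take part in the demethylation of the ring, differed by 0.13, 0.21 and 0.44 without passing the threshold.

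Fatty acid genes had a median near 0 in hILOs, and none passed the threshold. FASN, fatty acid synthase, had 51.66 and 50.58 TPM in WT against 59.91 and 57.72 TPM in A5-KO (0.20, adjusted p = 0.0884), and SCD, the desaturase that makes oleate, had 268.9 and 273.8 TPM in WT against 299.4 and 297.1 TPM in A5-KO (0.14, adjusted p = 0.0714). ACLY, which supplies cytosolic acetyl-CoA, and the desaturases FADS1 and FADS2 of polyunsaturated fatty acids differed by -0.04, 0.00 and -0.04, values so small that with the median of ratios FADS2 was at 0.021. ELOVL6, an elongase, was lower in both A5-KO libraries (-0.17, adjusted p = 0.161). ACACA, acetyl-CoA carboxylase, was the least abundant member, at 8.496 and 14.54 TPM in WT against 15.43 and 15.87 TPM in A5-KO.

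**Figure D1:**
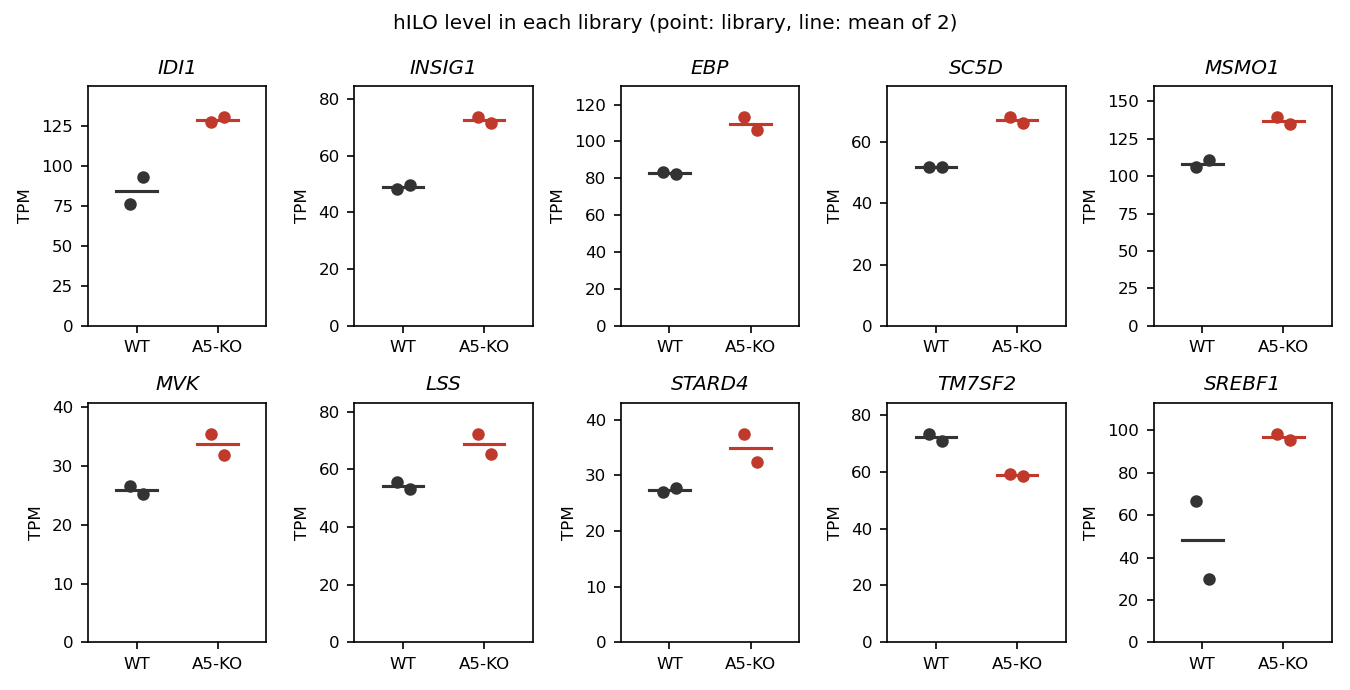
TPM of 10 members in each hILO library, WT in black and A5-KO in red, with lines at the mean of 2 libraries and every axis starting at 0. Only members without overlap between the genotypes are drawn, the A5-KO points being higher except for TM7SF2. Members with overlap, such as HMGCS1 and PMVK, are left out. So are DHCR7, SCAP, FADS2 and ELOVL6, which were lower in both A5-KO libraries. The SREBF1 libraries of WT lie apart at 66.5 and 29.76 TPM.

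In the wider pathway lists 3 genes were called higher in hILOs and none lower. None of 9 other sterol and isoprenoid genes tested (median difference -0.05) and none of 11 genes of SREBP processing (median -0.10) was called by limma, with 1 lower and 2 higher at an unadjusted p under 0.05 in the first list and 1 higher in the second. Of 22 other fatty acid genes tested, 15 lay above 0 (median 0.09) and 2 were called higher, against 2.7% of all genes: ACSL1 (13.4 and 15.7 TPM in WT against 24.1 and 23 TPM in A5-KO, adjusted p = 0.0314) and ACSL4 (23.6 and 23.7 TPM in WT against 46.8 and 38.8 TPM in A5-KO, adjusted p = 0.0215), both of which activate long-chain fatty acids with CoA. Of 12 sterol export and LXR genes tested, 9 lay above 0 with a median of 0.18, beside 23 of the 30 members with 0.16 and a median of -0.06 over all genes. Among them CYP27A1, a mitochondrial sterol 27-hydroxylase, was higher (55.2 and 52.2 TPM in WT against 92.8 and 86.8 TPM in A5-KO, adjusted p = 0.00935), and with the median of ratios ABCA1, the cholesterol exporter, was called as well (0.61, adjusted p = 0.0393). Cell type markers moved with genotype as well. The 10 hepatocyte markers, from a cell type with high sterol synthesis, summed to 21371 to 21668 TPM in WT, against 36315 to 36594 TPM in A5-KO, with 3 called higher (ALB, APOA2 and TTR) and 3 lower (FGA, FGB and FGG). The 10 endocrine markers summed to 36054 to 38407 TPM in WT, against 29154 to 30420 TPM in A5-KO, with 4 lower and 2 higher. The 8 enterocyte markers summed to 6086 to 6119 TPM in WT, against 5232 to 5243 TPM in A5-KO. Of them 1 was called lower (APOA4, -0.627) and 1 higher (SI, 1.535). FABP2, VIL1, LGALS4 and CDH17 lay higher too, by 0.530, 0.435, 0.432 and 0.355 on the log2(TPM + 1) scale, each under 1.5-fold. FABP1 (0.119) and CDX2 (-0.098) did not pass the threshold. The lower sum was thus not shared by most markers of that list. The 8 mesenchyme markers summed to 7.24 to 14.7 TPM in WT, against 41.6 to 48 TPM in A5-KO. The part of these shifts in the differences of the synthesis genes was not tested, and in bulk RNA fewer cells of a type and less RNA per cell cannot be told apart.

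In PPs before Act D no member was called in either direction. Limma called 1.57% of 13911 genes higher and 1.13% lower, and at an unadjusted p under 0.05 there were 7 members higher and 1 lower. edgeR and DESeq2 on the recovered reads also called none of the members. Differences were above 0 for 21 of 30 members, with a median of 0.09 on the log2(CPM + 1) scale against 0.03 for all genes, and both A5-KO libraries lay above both WT libraries for 13 members (43.3%, against 29% of all genes) and below both for 5 (16.7%, against 20.8%). IDI1 had 132.9 and 120.7 CPM in WT against 169.4 and 142.3 CPM in A5-KO (0.29, adjusted p = 0.146). ACAT2 had 55.37 and 60.08 CPM in WT against 75.07 and 69.23 CPM in A5-KO (0.32, adjusted p = 0.102), and MVK had 36.86 and 35.63 CPM in WT against 43.82 and 43.46 CPM in A5-KO (0.26, adjusted p = 0.181). INSIG1 was at 124.1 and 103.8 CPM in WT against 142 and 128.5 CPM in A5-KO (0.25, adjusted p = 0.216). For these 4 genes the libraries did not overlap between genotypes, but the difference missed the threshold.

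SREBF2 and SCAP lay below WT in PPs, without passing the threshold. SREBF2 was lower in both A5-KO libraries at 371.1 and 405.1 CPM, against 412.9 and 444.6 CPM in WT (-0.14, adjusted p = 0.331), and SCAP at 109.7 and 118.1 CPM against 123.9 and 128.9 CPM (-0.15, adjusted p = 0.351). SCD was at 1250 and 1232 CPM in WT against 1283 and 1234 CPM in A5-KO. LSS had the lowest difference (-0.70), with WT libraries at 35.48 and 16.95 CPM and A5-KO libraries at 11.71 and 18.45 CPM. Without WT replicate 2 the LSS difference was -1.21 and was called. ACACA had the highest difference (0.81) on 1.608 and 1.023 CPM in WT against 1.329 and 5.975 CPM in A5-KO, and without A5-KO replicate 1 it was called at 1.603. Of 53 genes of the wider lists tested at 0 h limma called none, with 8 lower and 13 higher at an unadjusted p under 0.05. edgeR called ELOVL4, an elongase of very long chains (-0.64, adjusted p = 0.0138), and MYLIP, a ligase that degrades lipoprotein receptors (-0.64, adjusted p = 0.0322), lower in A5-KO, as did median-of-ratios scaling. Their limma differences were -0.57 and -0.56. The hepatocyte markers summed to 1159 to 1218 CPM in WT and to 1972 to 2008 CPM in A5-KO, with 7 of 10 called higher, and the mesenchyme markers to 118 to 127 CPM and 207 to 212 CPM, with 4 of the 6 tested called higher. The enterocyte markers summed to 712 to 721 CPM in WT and 899 to 920 CPM in A5-KO, with 0 of 8 called. The progenitor markers overlapped, at 903 to 1154 CPM in WT and 841 to 926 CPM in A5-KO. Of the 7 tested, 1 was called, ONECUT1, which was lower (-1.39, limma adjusted p = 0.00189). The 4 markers of undifferentiated stem cells summed to 121 to 124 CPM in WT and 234 to 248 CPM in A5-KO. Of them LIN28A was called higher (1.01, limma adjusted p = 0.000118), while DPPA4 lay lower (-0.53, limma adjusted p = 0.207). NANOG was under 0.1 CPM in both libraries of each genotype, and POU5F1 in both of A5-KO. The 4 adipocyte markers summed to 11.2 to 12.8 CPM in WT and 11 to 15.1 CPM in A5-KO, with ADIPOQ and LEP under 0.1 CPM. Their part in the values of the members was not tested.

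**Figure D2:**
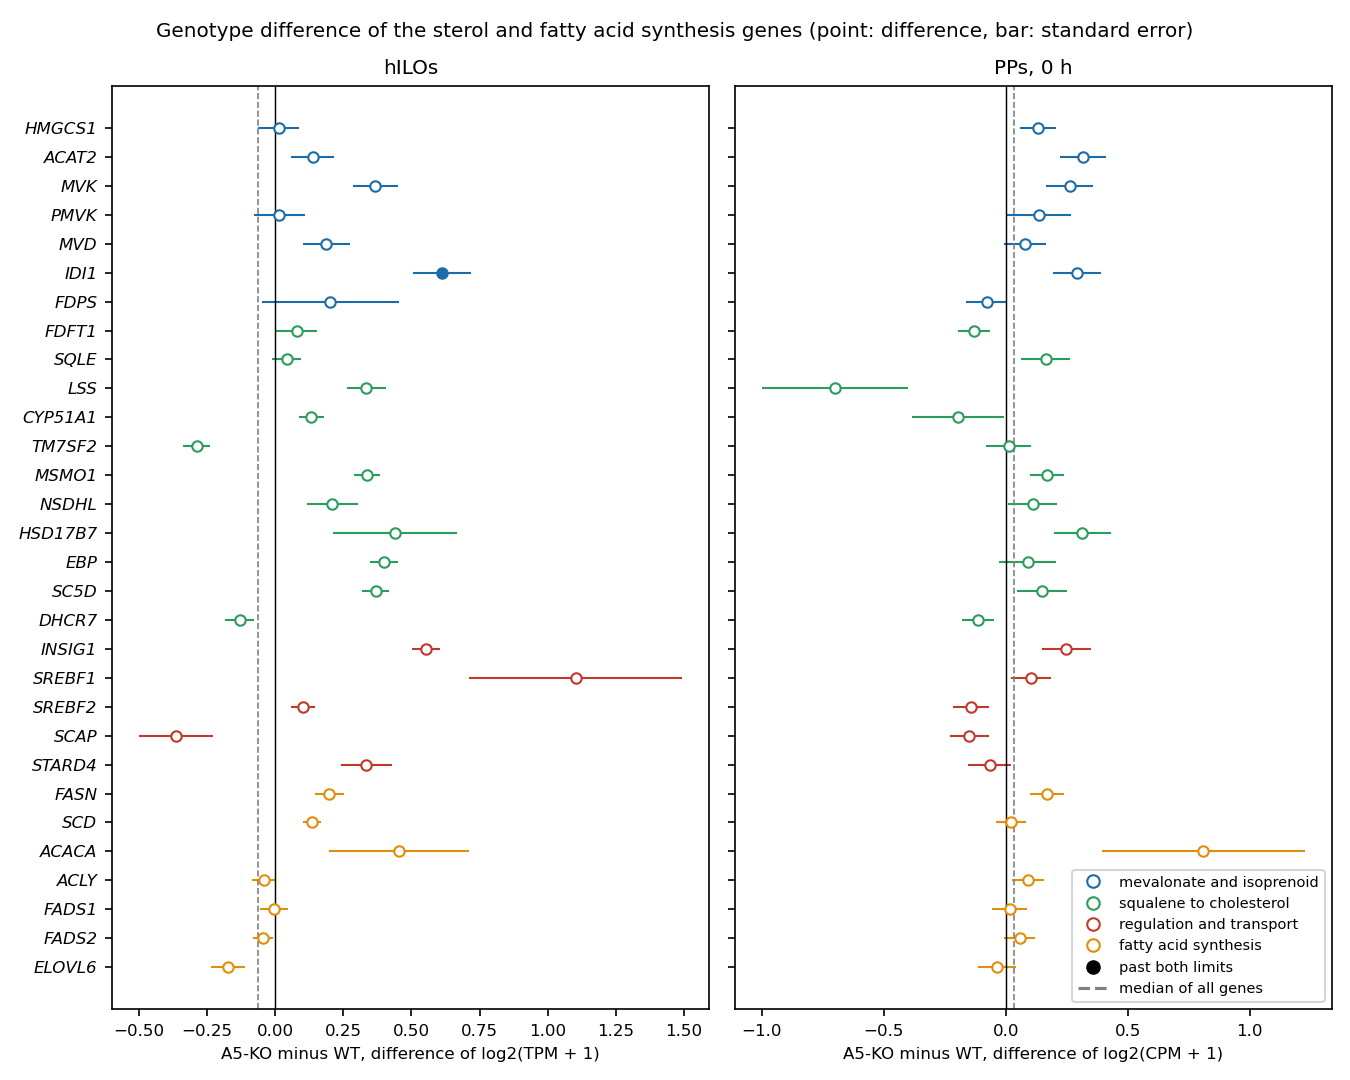
Difference between genotypes of each member in hILOs and in PPs at 0 h, on log2 scales with standard errors, by role in colour, with filled points for genes past both limits and a dashed line at the median of all genes. Most hILO points lie right of the dashed line at -0.06, and IDI1 is the 1 filled point.

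The Act D series addressed how fast these mRNAs decay. CPM values are relative to the mRNA that remains in each library, so a stable mRNA rises in CPM as others decay. Within 1 h the mRNA of INSIG1 fell by more than that of any other member in both genotypes, enzymes of the mevalonate and squalene steps came next, and no fatty acid gene was called. ELOVL6 fell in A5-KO by 0.32 on the log2(CPM + 0.1) scale (limma adjusted p = 0.00776), under 1.5-fold. In WT, 5 members were called lower after 1 h (16.7%), against 15.4% of 13620 genes, and none higher, against 0.301%. In A5-KO, 4 were called lower (13.3%), against 17.1%, and none higher, against 1.37%. The 4 genes called in A5-KO (HMGCS1, IDI1, SQLE and INSIG1) were among the 5 of WT, to which MVK was added. These shares were near the background. At an unadjusted p under 0.05, 2 members were higher in WT and 4 in A5-KO, and edgeR called 1 (ACACA) and 0.

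INSIG1 had 124.1 and 103.8 CPM at 0 h in WT, 45.69 and 49.67 CPM at 1 h, 42.27 and 56.37 CPM at 2 h, and 70.76 and 67.9 CPM at 3 h. In A5-KO it had 142 and 128.5 CPM at 0 h, 56.44 and 59.72 CPM at 1 h, 49.36 and 44.7 CPM at 2 h, and 32.15 and 30.67 CPM at 3 h. The libraries of the genotypes overlapped at 2 h but not at 3 h, the WT libraries being higher at 3 h than at 2 h and the A5-KO libraries lower. On the log2(CPM + 0.1) scale the change at 1 h was -1.25 ± 0.12 in WT (adjusted p = 1.23e-05) and -1.22 ± 0.12 in A5-KO (adjusted p = 1.9e-05), and their difference was 0.03 ± 0.18 (adjusted p = 0.978).

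SQLE, the epoxidase that commits squalene to sterols, fell from 191.6 and 162.9 CPM at 0 h to 112.7 and 110.1 CPM at 1 h in WT, and from 213.5 and 183.9 CPM to 134 and 128.2 CPM in A5-KO. HMGCS1 fell from 382.7 and 360.7 CPM to 247.4 and 241.7 CPM in WT, and from 427.4 and 387.4 CPM to 237 and 222.9 CPM in A5-KO. IDI1 fell from 132.9 and 120.7 CPM to 89.24 and 78.43 CPM in WT, and from 169.4 and 142.3 CPM to 88.45 and 103.1 CPM in A5-KO. In each of these genes, named because they were called lower, the 2 libraries at 1 h lay below both at 0 h. The share of all genes separated in this way at 1 h was not computed. The change at 1 h on the log2(CPM + 0.1) scale was -0.67 for SQLE, -0.60 for HMGCS1 and -0.60 for IDI1 in WT, and -0.60, -0.82 and -0.70 in A5-KO. MSMO1 fell by 0.53 in WT and by 0.52 in A5-KO (adjusted p = 7.03e-05 and 9.15e-05), under 1.5-fold. HMGCS1 shares 37.7% of its exon bases with a gene on the other strand, and whether counting used the strand is not given in the sources used here.

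The calls at 1 h depended on the scale. Rescaling by the median of ratios moved the median change of all genes from -0.13 to 0.02 in WT and from -0.16 to 0.01 in A5-KO, and left 1 member called lower in WT (INSIG1) and 2 in A5-KO (HMGCS1 and INSIG1), as did edgeR. It moved the calls among all genes in A5-KO from 2326 lower and 186 higher to 1641 and 608. Without WT replicate 1 of 0 h, 1 member was called lower in WT, and without A5-KO replicate 1 of 0 h, 2 in A5-KO. The difference between genotypes of the change at 1 h was called for no member (limma, 1 lower and 3 higher at an unadjusted p under 0.05, 0 by edgeR), against 0% of all genes lower and 0.235% higher.

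From 0 to 3 h fewer members were called in WT than in A5-KO, and the difference itself is tested further on. In WT 1 member, INSIG1, was called lower (3.33%, against 9.37% of all genes) and none higher (against 0.441%, with 0 at an unadjusted p under 0.05 and 0 by edgeR). In A5-KO 9 were called lower (30%, against 32% of all genes): HMGCS1, MVK, IDI1, SQLE, MSMO1, NSDHL, HSD17B7, INSIG1 and ELOVL6. None was called higher (against 2.53%), 7 being higher at an unadjusted p under 0.05 and 5 by edgeR. With the median of ratios the median change of all genes in A5-KO moved from -0.25 to 0.04, and the members split into 5 lower (MVK, IDI1, SQLE, HSD17B7 and INSIG1) and 5 higher (LSS, TM7SF2, SREBF2, FASN and SCD), with 3192 genes lower and 1752 higher in place of 4358 and 345. Without WT replicate 1 of 0 h the INSIG1 change in WT was -0.58 and lost its call, and without A5-KO replicate 1 of 0 h NSDHL (-0.55) and ELOVL6 (-0.56) lost theirs in A5-KO.

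The change from 0 to 3 h was more negative in A5-KO than in WT for 5 members: INSIG1, HSD17B7, SQLE, MVK and IDI1 (16.7%, against 14.8% of all genes called in that direction). No member went the other way (against 0.69%, with 1 at an unadjusted p under 0.05 and 0 by edgeR). The same 5 genes were called with median-of-ratios scaling and by edgeR, where scaling moved the median difference of all genes from -0.19 to 0.00 and their calls from 2021 lower and 94 higher to 1461 and 404. For INSIG1 the change was -0.71 in WT and -2.10 in A5-KO, a difference of -1.39 ± 0.18 (adjusted p = 0.000813). At 3 h SQLE was at 124.7 and 135.5 CPM in WT against 76.12 and 70.44 CPM in A5-KO (difference of the changes -0.99 ± 0.18, adjusted p = 0.00242). MVK was at 28.7 and 26.41 CPM in WT against 17.78 and 15.81 CPM in A5-KO (-0.98 ± 0.23, adjusted p = 0.00795). IDI1 was at 96.99 and 113 CPM in WT against 78.91 and 68.32 CPM in A5-KO (-0.80 ± 0.17, adjusted p = 0.00453). HSD17B7, the ketoreductase of the ring (plus strand of chromosome 1, 162790702 to 162812823), was at 19.33 and 25.62 CPM in WT against 15.79 and 11.98 CPM in A5-KO (-1.01 ± 0.25, adjusted p = 0.0111), and lost its call without WT replicate 2 of 0 h (-0.92), WT replicate 2 of 3 h (-0.81) or A5-KO replicate 2 of 3 h (-0.82). In none of the 5 did the libraries at 3 h overlap between genotypes, but the genes were selected by these same values. The share of all genes without overlap at 3 h was not computed. Under 1.5-fold, the limma adjusted p was 0.00289 for MSMO1 (-0.51), 0.022 for ELOVL6 (-0.42) and 0.0234 for HMGCS1 (-0.39).

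**Figure D3:**
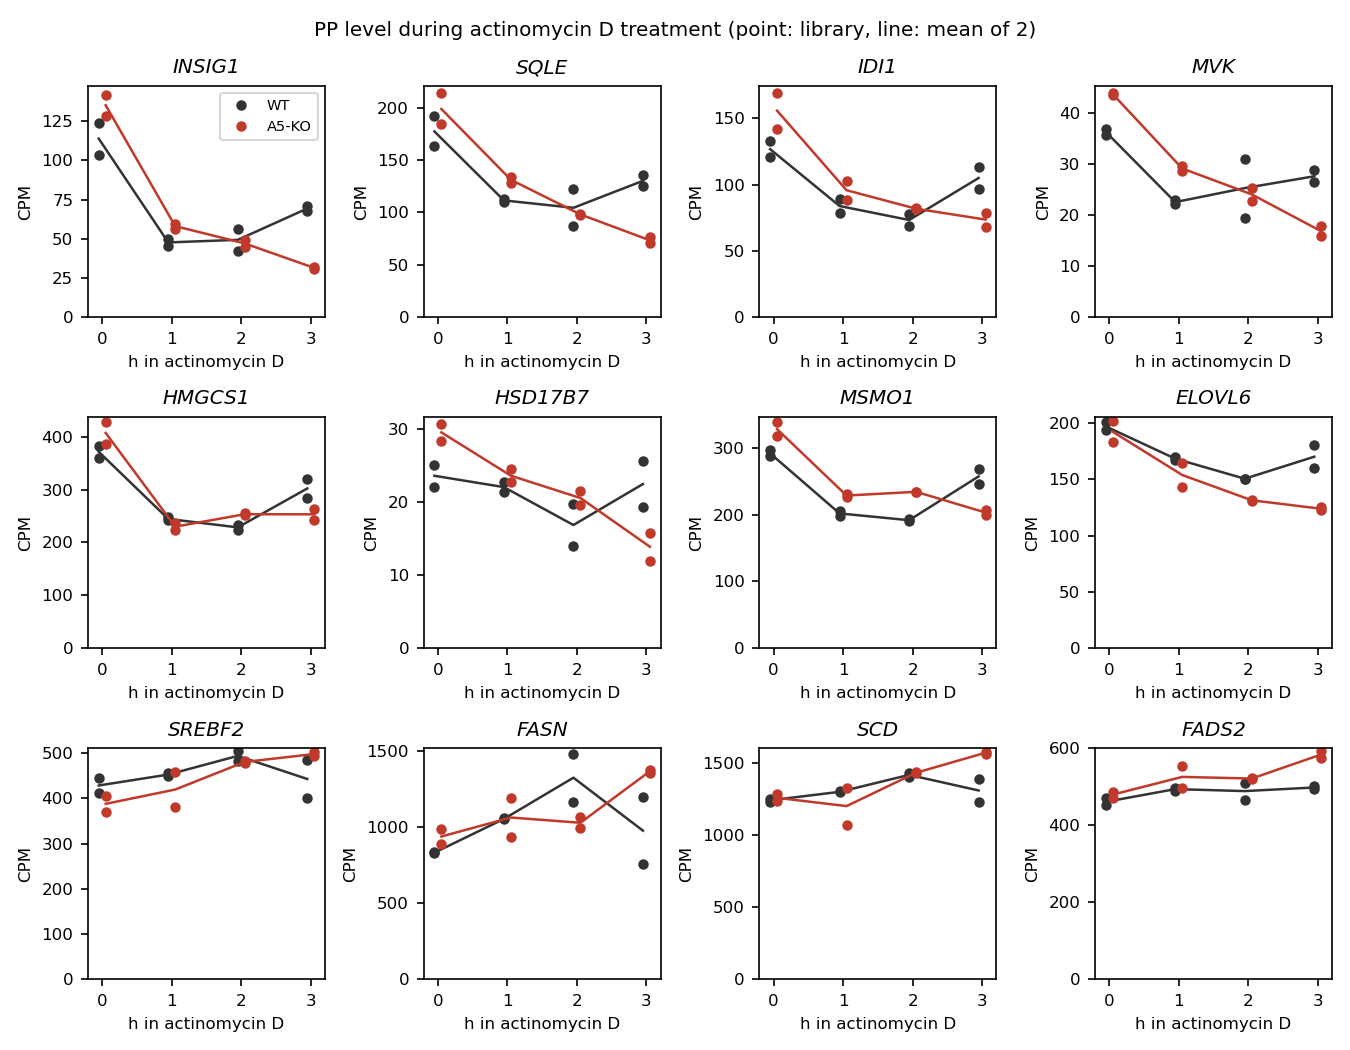
CPM of 12 members in each PP library over 0 to 3 h of Act D, WT in black and A5-KO in red, with lines through the means of 2 libraries and axes from 0. INSIG1 falls to similar levels by 1 h in both genotypes, and by 3 h stands at 70.76 and 67.9 CPM in WT against 32.15 and 30.67 CPM in A5-KO, while no fall was called for SCD and FADS2.

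The difference was seen at the last time point. From 0 to 2 h no member was called for a difference in its change (limma, 1 lower and 1 higher at an unadjusted p under 0.05), with 0.147% of all genes lower and 0.698% higher, 20 genes being lower in place of 2021, and the difference for INSIG1 was -0.31 (adjusted p = 0.358). Between 2 and 3 h, which were not tested against each other, 10 members in WT had both libraries at 3 h above both at 2 h (33.3%, against 25.2% of all genes): HMGCS1, ACAT2, IDI1, FDFT1, SQLE, MSMO1, NSDHL, SC5D, INSIG1 and ELOVL6. Both libraries at 3 h were below both at 2 h for 5 members (against 14.1%), among them SCD and ACLY. In A5-KO 12 were lower (40%, against 34.7%) and 8 higher (26.7%, against 25.2%), the higher including FASN, SCD, ACLY, FADS1 and FADS2. Progenitor markers moved with the same libraries. The 8 progenitor markers, mostly transcription factors, summed to 903 to 1154 CPM in WT at 0 h, 298 to 338 at 1 h, 200 to 447 at 2 h and 362 to 373 at 3 h. In A5-KO they summed to 841 to 926, 302 to 317, 148 to 154 and 93.9 to 109 CPM. The WT libraries at 2 h thus lay far apart, and at 3 h the genotypes did not overlap. The hepatocyte markers of WT summed to 1159 to 1218 CPM at 0 h and 1560 to 1709 CPM at 3 h, against 1972 to 2008 and 2264 to 2412 CPM in A5-KO. The part of these shifts in the 3 h result was not tested.

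At single times, A5-KO minus WT was called at 1 h for LSS alone, which was lower (-1.11, adjusted p = 0.0393, 3.33% of members against 1.24% of all genes). No member was called higher at 1 h (against 3.05%, with 9 at an unadjusted p under 0.05 and 0 by edgeR). LSS was at 39.37 and 24.2 CPM in WT against 16.25 and 12.48 CPM in A5-KO, and the call was lost without WT replicate 1 of 1 h, without either A5-KO library of 1, 2 or 3 h, and with the replicate number in the fit. At 2 h none was called, against 4.85% of genes lower and 2.69% higher (limma, 2 members lower and 3 higher at an unadjusted p under 0.05, 0 by edgeR), and all genes split into 462 lower and 496 higher with the median of ratios in place of 661 and 367. At 3 h MVK, SQLE, HSD17B7 and INSIG1 were lower in A5-KO (13.3%, against 19.1%), INSIG1 by 1.14 on the log2(CPM + 0.1) scale (adjusted p = 1.61e-05). HSD17B7 lost its call without replicate 2 of 3 h of either genotype (-0.49 each). None was higher (against 1.23%, with 5 at an unadjusted p under 0.05). With the median of ratios, which moved the median of all genes from -0.14 to -0.01, and by edgeR, 2 remained lower (SQLE and INSIG1) and FASN was higher.

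The 7 fatty acid genes under Act D are given beside the mevalonate genes, without a test between them. At 1 h their median change was 0.14 in WT and -0.08 in A5-KO, against -0.22 and -0.17 for the mevalonate genes, and at 3 h 0.09 and 0.21, against -0.05 and -0.38, with -0.10 and -0.25 for all genes at 3 h. FASN went from 829.5 and 835.2 CPM at 0 h to 1199 and 755.6 CPM at 3 h in WT, where the libraries disagreed, and from 886.4 and 990.9 CPM to 1379 and 1358 CPM in A5-KO (0.55, adjusted p = 0.01, under 1.5-fold). SCD went from 1283 and 1234 CPM to 1564 and 1579 CPM in A5-KO (0.32, adjusted p = 0.00517), and FADS2 from 471.4 and 487.5 CPM to 593.5 and 574 CPM (0.28, adjusted p = 0.00267). Exons of FADS1 and FADS2 overlap by 490 bases on opposite strands. ELOVL6 fell in A5-KO from 201.4 and 183.1 CPM to 125.2 and 122.4 CPM (-0.63, adjusted p = 1.03e-05).

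Of the other regulators limma called none at 3 h, while median-of-ratios scaling and edgeR called SREBF2 higher in A5-KO (0.65 and 0.64, edgeR adjusted p = 8.01e-05). SREBF2 went from 412.9 and 444.6 CPM at 0 h to 485.8 and 400.5 CPM at 3 h in WT, and from 371.1 and 405.1 CPM to 493.4 and 503.5 CPM in A5-KO (0.36, limma adjusted p = 0.0043, under 1.5-fold). SREBF1 in A5-KO went from 81.25 and 82.91 CPM to 97.68 and 92.77 CPM (0.21, adjusted p = 0.119), and SCAP from 109.7 and 118.1 CPM to 137.4 and 130.8 CPM (0.24, adjusted p = 0.0935). STARD4 fell by 0.32 on the log2(CPM + 0.1) scale in A5-KO (adjusted p = 0.0188), under 1.5-fold.

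**Figure D4:**
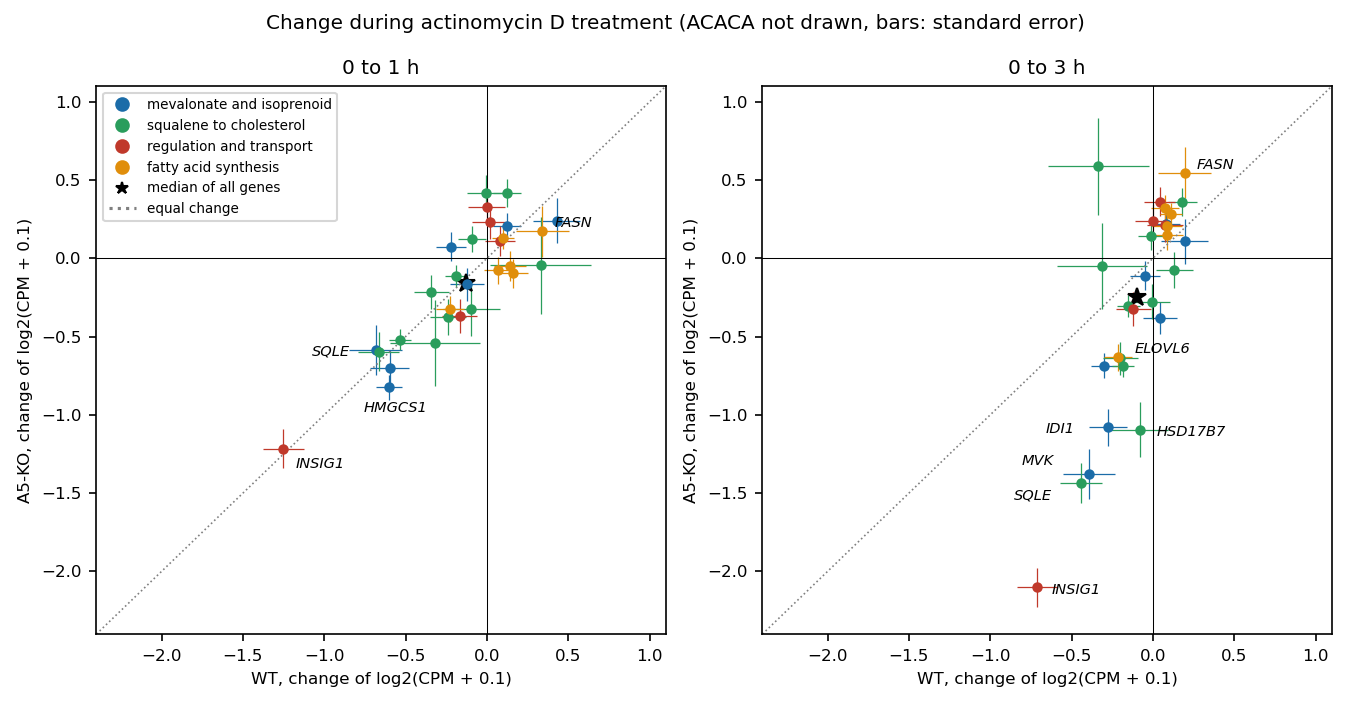
Change of each member from 0 to 1 h and from 0 to 3 h in WT (x axis) and A5-KO (y axis) on the log2(CPM + 0.1) scale, with standard errors, roles in colour, a star at the median of all genes and a dotted line of equal change. At 1 h INSIG1 lies on the dotted line at -1.25 and -1.22, and at 3 h INSIG1, SQLE, MVK, IDI1 and HSD17B7 lie below it.

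Half-lives were computed for each replicate as a description, by fitting the log2 ratios to 0 h with a slope and no intercept. They are relative to total mRNA, and the pairing of time points by replicate number has no basis in the labels beyond the number. The half-life of INSIG1 was 2.01 and 3.01 h in WT against 1.3 and 1.35 h in A5-KO. The mean slope of both replicates gave 2.41 h (WT) and 1.33 h (A5-KO), whereas the mean of the 3 rates, one for each time, gave 1.43 h (WT) and 1.12 h (A5-KO), a narrower gap. SQLE had 2.85 and 6.36 h in WT against 1.9 and 2.16 h in A5-KO, IDI1 3.65 and 6.43 h against 2.21 and 2.68 h, and MVK 3.84 and 6.02 h against 2.3 and 2.07 h. The values of the genotypes did not overlap in these genes, and WT replicates differed more than A5-KO replicates. These genes were among those called for the difference of the 3 h change, so the lack of overlap adds no support. HSD17B7, also called there, had 4.63 h in WT replicate 1 and no fall in WT replicate 2, against 3.59 and 2.59 h in A5-KO. From the mean slope, 5 members in WT (HMGCS1, MVK, IDI1, SQLE and INSIG1) and 9 in A5-KO had a half-life under 5 h. Levels fell in both replicates for 13 members in WT and 14 in A5-KO, of which ELOVL6 was the 1 fatty acid gene in either genotype. Half-lives were computed for the members only, so these counts have no share of all genes beside them. By the limma test of the change from 0 to 3 h, 30% of members were called lower in A5-KO, against 32% of all genes. In WT the shares were 3.33% and 9.37%. A difference of the slopes between genotypes was called for no member (limma, 8 lower and 2 higher at an unadjusted p under 0.05, 0 by edgeR), with 2.61% of all genes lower in A5-KO and 0.0661% higher. INSIG1 had a slope difference of -0.45 per h (adjusted p = 0.111), SQLE of -0.33 (adjusted p = 0.068) and MVK of -0.33 (adjusted p = 0.0728). Without WT replicate 1 of 0 h, or of 2 h, 3 members were called.

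In the wider lists 4 genes were called lower at 1 h in both genotypes: RNF139, FBXW7, MYLIP and ABCA1. By list these were 2 of 11 SREBP processing genes and 2 of 10 export genes tested in each genotype, beside 15.4% of all genes in WT and 17.1% in A5-KO, and none of 9 other sterol genes or 23 other fatty acid genes. MYLIP went from 15.9 and 16.1 CPM to 2.8 and 3.94 CPM within 1 h in WT (-2.24, adjusted p = 0.000196) and from 11.3 and 9.84 CPM to 2.21 and 2.31 CPM in A5-KO (-2.17, adjusted p = 0.000235). RNF139, a ligase of the endoplasmic reticulum, went from 58.5 and 42.6 CPM to 21 and 22.4 CPM in WT and from 53.8 and 47.8 CPM to 25.1 and 26.2 CPM in A5-KO. FBXW7, the ligase subunit that marks nuclear SREBP for degradation, fell by 1.17 in WT and by 1.21 in A5-KO on the log2(CPM + 0.1) scale. With the median of ratios and by edgeR ABCA1 lost its call in WT, and TECR and HACD1, of fatty acid elongation, were called higher in A5-KO.

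At 3 h in WT, limma called RNF139 (-0.99), FBXW7 (-0.96) and MYLIP (-1.80) lower, beside 9.37% of all genes. At 3 h in A5-KO, limma called lower 3 of 11 SREBP processing genes, 3 of 10 export genes, 1 of 9 other sterol genes and 4 of 23 other fatty acid genes, beside 32% of all genes, and called 1 (HACD1) higher, beside 2.53%. Under median-of-ratios scaling the lower calls of A5-KO in these lists were 2, 2, 1 and 3. The higher calls were 2, 1, 0 and 6, with 5 in place of 6 by edgeR. Among all genes that scaling gave 3192 lower and 1752 higher in A5-KO, so these counts are not set against 32% and 2.53%. The change at 3 h was more negative in A5-KO than in WT for RNF139 (-1.96, adjusted p = 0.00557), PDSS1, ACSL3, MID1IP1 and OXSM, which were 1 of 11 SREBP processing, 1 of 9 other sterol and 3 of 23 other fatty acid genes, beside 14.8% of all genes. Under that scaling and by edgeR PDSS1 and ACSL3 lost their calls, and HACD1 was called in the other direction.

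The members' levels were set side by side between the stages in WT, without a test, since the tables were normalized separately. PP values at 0 h were divided by exon length and rescaled to a total of 1000000 in each library. The deposited TPM of the WT hILO libraries summed to less, 924887 and 922614, and the ratios below were not adjusted for it. In hILOs the members lay between the percentiles 71.8 and 98.4 of genes and in PPs between 28.5 and 99.5. SCD was first of the 30 at each stage, with 268.9 and 273.8 TPM in hILOs and 767.4 and 739.7 per length in PPs. FADS2, FDPS, ACLY and FDFT1 followed by mean level in hILOs, and MSMO1, FASN, FDFT1 and DHCR7 in PPs. The place of FDPS is not fixed, since 1 library at 207 TPM lay above both of FADS2 (192.4 and 187.3 TPM) and the other at 125 TPM below both of ACLY (154.4 and 158.2 TPM) and of FDFT1 (146.8 and 133.4 TPM). The neighbours MSMO1 and HMGCS1 in hILOs, at 105.9 and 110.4 TPM and at 107.6 and 111.2 TPM, did not differ beyond their spread. The median log2 ratio of PPs to hILOs was 0.49 over the 30 members, against -0.03 for 6603 genes at 10 or more at both stages. FASN stood out upwards, at 286.6 and 282.2 per length in PPs against 51.66 and 50.58 TPM in hILOs. ACACA, CYP51A1 and LSS stood out downwards. CYP51A1 was at 5.541 and 5.92 per length in PPs against 96.55 and 92.89 TPM in hILOs, and 68.2% of its exon bases are shared with a readthrough gene on the same strand. ACACA was at 0.3976 and 0.2473 per length against 8.496 and 14.54 TPM with no exon overlap. The part of read counting in these values was not tested.

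**Figure D5:**
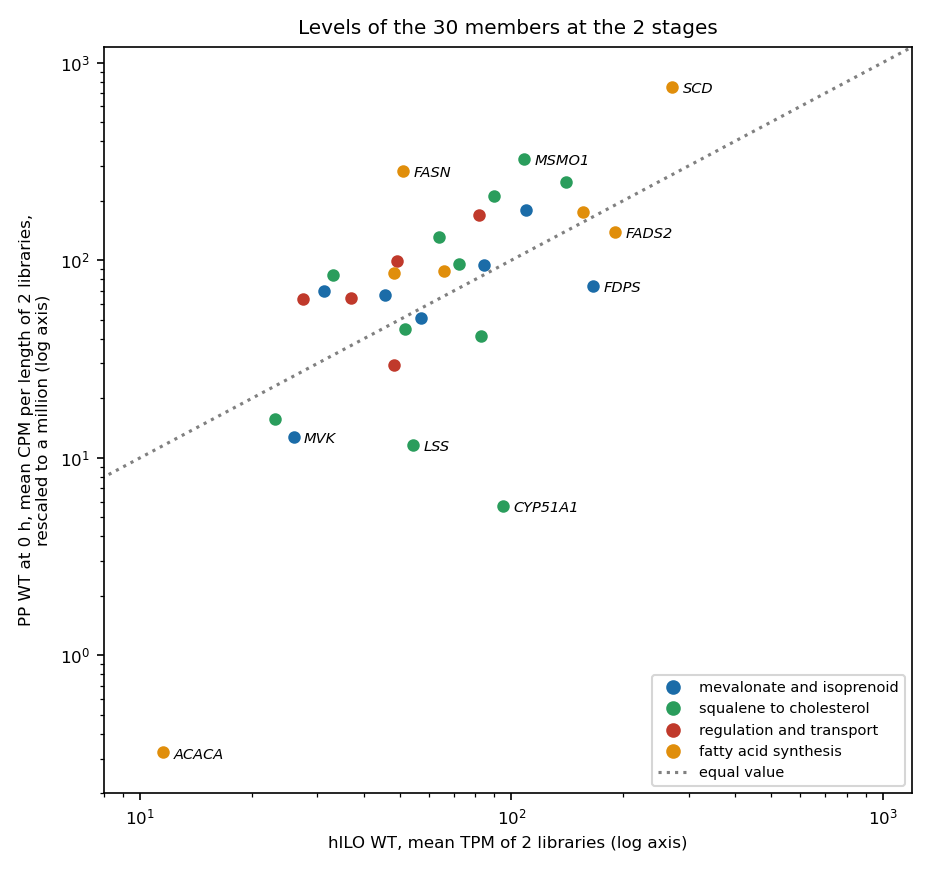
Mean level of the 30 members in WT hILOs (TPM) and WT PPs at 0 h (CPM per length, rescaled to a total of 1000000), both on log axes, with roles in colour and a dotted line of equal value. SCD lies at the top right, and ACACA, CYP51A1 and LSS lie far below the dotted line.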

How the data were processed

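Total RNA of MEL1 cells of 2 genotypes was sequenced at the hILO stage (2 libraries for each genotype) and at the PP stage under Act D (2 for each genotype and time). The submitters' processing notes name fastp for PPs and HISAT2 (version 2.1.0) with build hg38 for all samples. The authors deposited TPM per gene for hILOs, and CPM per gene without the ERCC spike-ins for PPs. The annotation release and the read counter of the PP files are not given in the sources used here. TPM keeps no depth, and the deposited values summed to 924887 and 922614 in WT and to 897038 and 887320 in A5-KO. The main hILO fit used them as deposited. CPM is relative to the mRNA left in each library, so Act D changes are relative. Whole reads were recovered from the CPM (at least 99.9951% of values within 0.01 reads of a whole number), giving 30516384 to 35206513 reads for each library.

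Values were fitted with limma (3.58.1, empirical Bayes with trend) over all genes with a mean of at least 1, on log2(TPM + 1) for hILOs, log2(CPM + 1) for PPs at 0 h, and log2(CPM + 0.1) for the 16 PP libraries, with a mean for each genotype and time or a slope per h. P-values are two-sided and Benjamini-Hochberg adjusted over all genes tested. A gene was called at an adjusted p under 0.05 and over 1.5-fold (slopes at an adjusted p under 0.05). These fold changes understate those of low genes because of the pseudocount. With 2 against 2 libraries an exact permutation test cannot go below p = 0.33, so none was run. edgeR (4.0.16) and DESeq2 (1.42.0, at 0 h) on the recovered reads, other scalings, filters and pseudocounts, the replicate number in the fit and leaving out each library were alternatives. All 30 members were named, with ALKBH5 and part of the called genes of 4 wider pathway lists. Of those lists, SCD5, ME1, SOAT2, ACACB, ELOVL7, INSIG2, MCAT and NR1H2 were also called by limma in PPs, without values given above. The members and lists, marker lists included, were chosen with earlier results of these data known, and the promoter motifs after the data had been seen. The fits were run on simulated data with planted changes, which were larger than most differences of the members. That run checks the code and not how well small differences are found. Gene positions and exon overlaps came from GENCODE on GRCh38. No p-value was computed over the list of members. No copied libraries were found.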

Additional observations from a re-analysis of the deposited data

Results flagged for a closer look

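The 5 members whose change from 0 to 3 h of Act D differed between genotypes by the limma test of the difference were INSIG1 (-1.391 on the log2(CPM + 0.1) scale), HSD17B7 (-1.014), SQLE (-0.992), MVK (-0.980) and IDI1 (-0.804). They are listed because the same treatment gave a different change in WT and in A5-KO. They were 16.7% of the 30 members, and 14.8% of all genes tested were called in the same direction, so the share was near the background. Each had 2 of 2 A5-KO libraries below 2 of 2 WT libraries at 3 h, which adds no support, since these values selected the genes. The share of all genes separated in this way at 3 h was not computed. The WT libraries at 3 h lay above those at 2 h for INSIG1, SQLE and IDI1, and no member was called for a difference in the change from 0 to 2 h.

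SREBF2 and FADS2 moved in opposite directions at the 2 stages. SREBF2 was higher in both A5-KO libraries of hILOs (0.101 on the log2(TPM + 1) scale) and lower in both of PPs at 0 h, and FADS2 was lower in both of hILOs (-0.043) and higher in both of PPs. With the median of ratios the FADS2 value in hILOs was 0.021, so its direction changed with the scaling. The difference between stages was not tested, and neither gene passed the threshold at either stage. Groups of 2 libraries are too small for a check of outlying samples.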

How the results depend on the processing

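Of 7069 values of single members under an alternative, 6967 kept their side of the threshold, of which 258, all uncalled, changed sign. Calls were lost by 58 and gained by 44, and no called value changed sign. In hILOs the count of members higher (1) was 0 without the filter on low values, 2 with the median of ratios, and 0 to 1 without 1 library. With the median of ratios and by edgeR alike, members lower numbered 1 in WT and 2 in A5-KO at 1 h, 5 in A5-KO at 3 h and 2 for A5-KO minus WT at 3 h, and members higher numbered 5 in A5-KO at 3 h and 1 for A5-KO minus WT at 3 h. edgeR also called 1 member higher in WT at 1 h. With 2 h in place of 3 h, an alternative chosen after seeing the data, the 5 members that differed in their change became 0. The slope over 0 and 3 h only, which has no fold limit, called 9 members lower in A5-KO. The share of all genes called at this setting is not given here, so the 9 are not set against a background. With the fold limit, the difference of the change from 0 to 3 h called 14.8% of all genes lower. As a mean of 3 rates, INSIG1 had a half-life of 1.43 h (WT) or 1.12 h (A5-KO), and with the median of ratios of 1.56 h (A5-KO).

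Without 1 library, members lower numbered 0 to 1 in PPs at 0 h, 1 to 5 in WT and 2 to 5 in A5-KO at 1 h, 0 to 1 in WT at 3 h, 0 to 1 for A5-KO minus WT at 1 h and at 2 h, and 0 to 3 for the slope. Members higher numbered 0 to 1 in PPs at 0 h, in WT at 1 h, in A5-KO at 3 h, for the difference of the 3 h change, and for A5-KO minus WT at 1 h and 3 h. A lone library was then assumed to vary like the other groups.

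Within a stage and time, same-numbered libraries of WT and A5-KO deviated together little (correlations of -0.005 in hILOs and -0.059 to 0.181 in PPs). These values cannot tell whether the numbers pair libraries by design. Pairing across times within a genotype, which the half-lives use, was not examined. With the replicate block, LSS became 1 member lower at 0 h, and members lower for A5-KO minus WT at 1 h went from 1 to 0. The cause of these changes was not tested. Depth of the hILO libraries is unknown, and 2 libraries in each group limit every test.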
